A study of Mus musculus with 18 samples.

Results

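The genes described here make, recycle, use and break down glutathione, or bring in the cystine from which it is built. Of 9 genes named for these roles (Slc7a11, Slc3a2, Gclc, Gclm, Gss, Gsr, Gpx2, Ggt1 and Chac1), 8 had a probe set that the platform annotation gives to 1 gene symbol, out of 19938 genes measured in this way. Ggt1 had no such probe set and was not analysed here. Transcript levels came from terminal bronchiolar epithelial cells of mouse lung, on 18 arrays in 6 groups of 3. The groups were Cebpa d/d mice at 0, 3 and 72 hr and control mice at 0, 3 and 72 hr of naphthalene injury. The strain of both genotypes was given as a mixture of FVB/N with C57BL/6. The labels do not say which promoter or recombinase made the d/d allele, what the control mice carry, how old the mice were or whether mice were pooled. They do not say that replicates came from separate mice. The p-values thus weigh differences between groups only against the spread of these samples, part of which may be technical.

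Glutathione is a tripeptide of glutamate, cysteine and glycine, and cysteine is usually the scarce part. Slc7a11 and its partner Slc3a2 form the exchanger that brings in cystine, glutamate-cysteine ligase (Gclc with its modifier Gclm) takes the first and limiting step of synthesis, and Gss adds glycine. In the lung, P450 enzymes of club cells turn naphthalene into reactive products that are conjugated to glutathione, and the loss of glutathione in those cells is a known step in the injury. The transcription factor NRF2 acts through antioxidant response elements in genes of this set, and ATF4 induces Slc7a11 and Chac1 during amino acid and endoplasmic reticulum stress.

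The promoters of Slc7a11, Chac1 and Gclm are shown because Slc7a11 and Chac1 are described as ATF4 targets, Gclm is an NRF2 target, and the levels of these genes carry the main findings. RefSeq sequences of assembly GRCm38.p6 were taken from 250 bases before to 50 bases after the annotated start, 5′ to 3′ on the strand of the gene. Slc7a11 lies at chr3:50443564-50443863 on the minus strand, Chac1 at chr2:119350992-119351291 on the plus strand and Gclm at chr3:122245307-122245606 on the plus strand. Capitals mark every match, on either strand, to an ATF4 composite element (TGATGNAA), a C/EBP element (TTGCNNAA) or the core of an antioxidant response element (TGACNNNGC).
Slc7a11: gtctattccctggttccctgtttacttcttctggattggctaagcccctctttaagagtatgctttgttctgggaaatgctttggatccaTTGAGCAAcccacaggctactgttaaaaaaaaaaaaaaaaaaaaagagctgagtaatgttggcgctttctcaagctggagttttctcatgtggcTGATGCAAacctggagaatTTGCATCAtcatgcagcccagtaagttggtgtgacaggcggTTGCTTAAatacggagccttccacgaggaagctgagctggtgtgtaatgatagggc
Chac1: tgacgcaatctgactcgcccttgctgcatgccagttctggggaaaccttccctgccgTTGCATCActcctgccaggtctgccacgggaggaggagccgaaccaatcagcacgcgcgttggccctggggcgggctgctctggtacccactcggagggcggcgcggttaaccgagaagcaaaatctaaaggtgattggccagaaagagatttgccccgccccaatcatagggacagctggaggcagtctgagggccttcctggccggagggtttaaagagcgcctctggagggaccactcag
Gclm: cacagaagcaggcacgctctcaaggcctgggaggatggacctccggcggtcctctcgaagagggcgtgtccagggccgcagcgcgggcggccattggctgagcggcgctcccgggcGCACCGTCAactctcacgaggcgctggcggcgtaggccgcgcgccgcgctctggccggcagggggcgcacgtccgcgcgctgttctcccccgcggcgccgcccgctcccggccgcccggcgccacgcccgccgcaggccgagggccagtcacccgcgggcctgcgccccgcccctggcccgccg

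The Slc7a11 window held 2 matches to the ATF4 composite element, which begin at positions -66 and -47 relative to the start and read on opposite strands. It also held 2 matches to the C/EBP element, at -160 and -6. The Chac1 window held 1 match to the ATF4 element, at -193, and the Gclm window held 1 match to the antioxidant response element core, at -134. No 2 of these matches overlap. The windows of Slc3a2, Gss and Gpx2 held none of the 3 motifs, and Gclc and Gsr had no promoter entry. Ggt1, which had no level to describe, had 4 windows. These held matches to the antioxidant response element core at 42, -36 and -83, each in a different window. They also held a match to the C/EBP element at -4. Of 32851 mouse promoters of the same length, 3.97% held TGATGNAA, 10.8% held TTGCNNAA and 12.4% held TGACNNNGC. A match is only a run of letters in this window, and binding was not measured.

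Cebpa, which encodes C/EBP alpha, was examined first as the targeted gene. On the log2 scale of the deposited values, its 3 arrays read 8.27, 8.11 and 7.83 at 0 hr, 8.29, 8.07 and 8.37 at 3 hr and 9.07, 8.55 and 7.90 at 72 hr in Cebpa d/d cells. Control cells read 7.89, 10.07 and 10.17 at 0 hr, 10.52, 10.30 and 10.32 at 3 hr and 9.69, 9.80 and 9.87 at 72 hr. Replicate 1 of the control 0 hr group thus read as low as Cebpa d/d cells do, against its label. It is called the Cebpa-low control array below, and a number of the values that it moved are given with and without it. Which stretch of Cebpa the d/d allele alters is not stated, so the probe set may lie outside it. Within a group, pairs of arrays had correlations of at least 0.982 over the 19938 genes. Club cell transcripts were abundant in every group, with group means of 12.68 to 12.84 for Scgb1a1 and 12.49 to 13.25 for Cyp2f2. Transcripts of other cell types were also present, with group means of 13.03 to 13.23 for the alveolar surfactant gene Sftpc and 6.20 to 10.50 for the heart myosin Myh6. In such bulk samples, fewer cells of a type and less RNA per cell cannot be told apart.

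Nearly all of the measured glutathione genes were higher 3 hr after naphthalene, in both genotypes, and the cystine exchanger subunit Slc7a11 led. At an adjusted p under 0.05 over all genes, 8 of 8 were higher at 3 hr than at 0 hr in Cebpa d/d cells, where 2.66% of all genes were higher. In control cells 7 of 8 were higher, where 1.88% of all genes were. For each of the 8 genes and in both genotypes, all 3 arrays at 3 hr lay above all 3 arrays at 0 hr, as did 10.7% of all genes in Cebpa d/d cells and 11.3% in control cells. The median change over the 8 genes was 1.60 log2 units in Cebpa d/d cells and 1.05 in control cells, against -0.02 and 0.03 over all genes. Taken gene by gene, the rise in Cebpa d/d cells less that in control cells had a median of only 0.16. That difference passed for 0 of 8 genes.

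**Figure D1:**
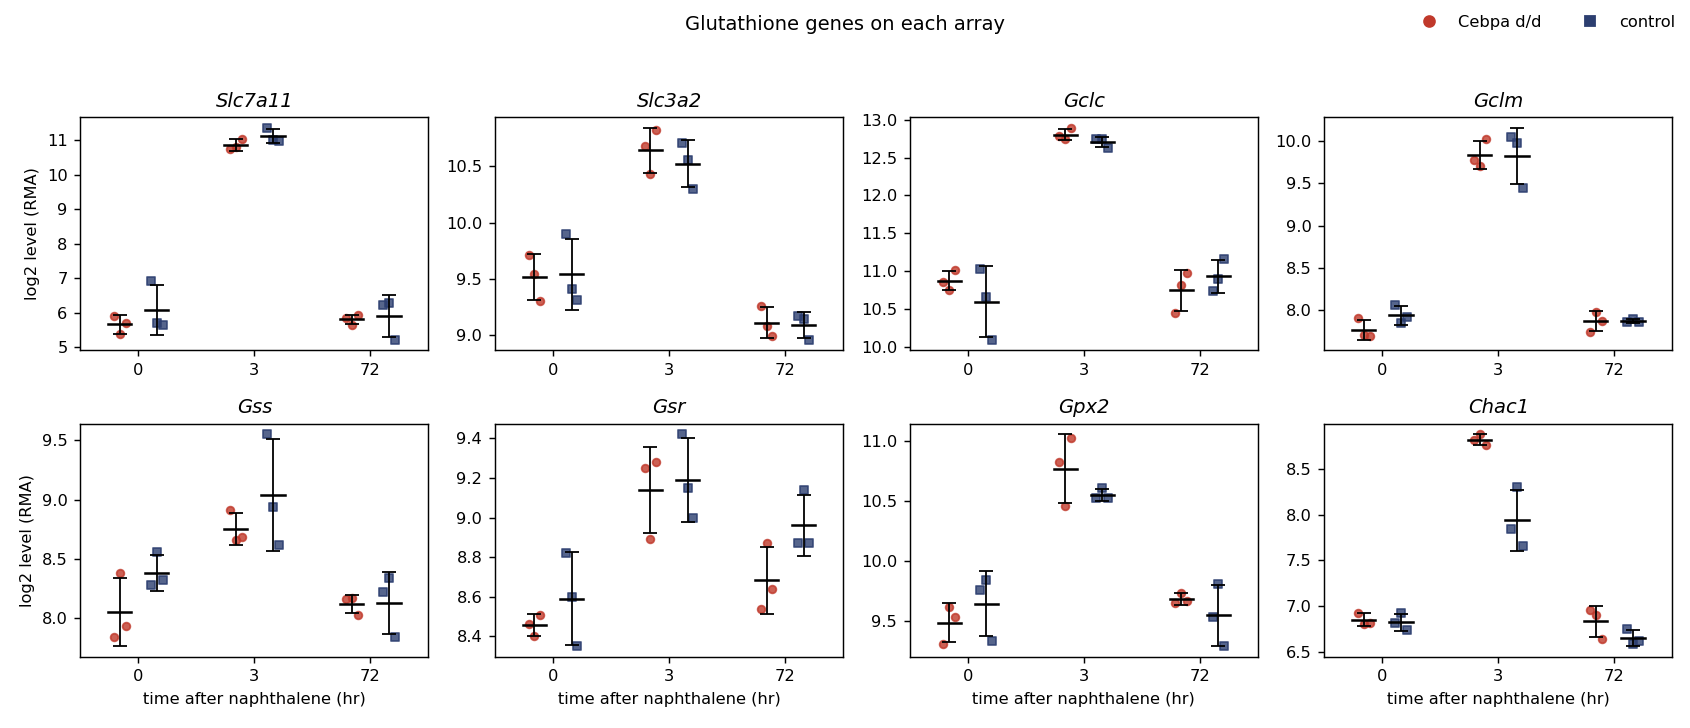
Log2 level of each of the 8 measured glutathione genes (vertical axis) at 0, 3 and 72 hr (horizontal axis), with 1 point per array and the mean ± SD of 3 arrays, for Cebpa d/d and control cells. Every gene peaked at 3 hr in both genotypes, and the 3 hr arrays of Chac1 separate by genotype, at 8.76 to 8.88 in Cebpa d/d cells and 7.66 to 8.31 in control cells.

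Cystine import was described by Slc7a11, the transport subunit of the exchanger, and Slc3a2, the heavy chain that it shares with other amino acid transporters. Slc7a11 read 5.92, 5.38 and 5.70 at 0 hr, 10.73, 10.80 and 11.04 at 3 hr and 5.84, 5.66 and 5.93 at 72 hr in Cebpa d/d cells. In control cells it read 6.91, 5.70 and 5.64 at 0 hr, 11.35, 11.00 and 10.98 at 3 hr and 6.24, 6.29 and 5.22 at 72 hr. The 6 arrays at 3 hr lay between 10.73 and 11.35 while no other array was above 6.91, and the arrays at 0 and 72 hr overlapped. Slc7a11 rose by 5.19 ± 0.30 log2 units (SE) from 0 to 3 hr in Cebpa d/d cells, 36.5-fold, with an adjusted p of 2.95e-08. The rise in control cells was 5.02 ± 0.30, 32.5-fold, with an adjusted p of 4.92e-08. In each genotype this was the largest rise of all 19938 genes. By 72 hr Slc7a11 had fallen by 5.05 ± 0.30 below its 3 hr level in Cebpa d/d cells and fallen by 5.19 ± 0.30 in control cells, again the largest fall of any gene in both.

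One control array moved the starting level of Slc7a11. The Cebpa-low control array, at 6.91, was the highest of the 12 arrays at 0 and 72 hr. Without it the rise in control cells was 5.44 ± 0.25, with an adjusted p of 3.34e-09. The difference at 0 hr between Cebpa d/d and control cells was -0.41 with this array (95% interval -1.04 to 0.21) and 0.00 without it. In control cells the difference between 72 and 0 hr was -0.17 with it and 0.25 without it, and the rise of Slc7a11 in Cebpa d/d cells less that in control cells was 0.17 with it and -0.25 without it. The rise in control cells passed with and without this array, and none of the other differences passed either way.

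Slc3a2 followed the same course with a smaller range. Its levels were 9.71, 9.54 and 9.30 at 0 hr, 10.68, 10.43 and 10.82 at 3 hr and 9.26, 9.08 and 8.99 at 72 hr in Cebpa d/d cells. Control cells had 9.90, 9.41 and 9.31 at 0 hr, 10.71, 10.56 and 10.30 at 3 hr and 9.17, 9.14 and 8.96 at 72 hr. All arrays at 72 hr were below all arrays at 0 hr of the same genotype, as were 11.3% of all genes in Cebpa d/d cells and 12.4% in control cells. The rise to 3 hr was 1.12 ± 0.16 in Cebpa d/d cells (2.18-fold, adjusted p = 0.000414) and 0.98 ± 0.16 in control cells (1.97-fold, adjusted p = 0.00289). The control rise was 1.16, with an adjusted p of 0.000735, once the Cebpa-low control array was dropped. From 3 to 72 hr Slc3a2 fell by 1.53 in Cebpa d/d cells and fell by 1.43 in control cells. Its 72 hr level differed from its 0 hr level by -0.41 in Cebpa d/d cells (adjusted p = 0.168) and -0.45 in control cells (adjusted p = 0.0936), and neither passed. The control difference was -0.27 (adjusted p = 0.301) without the Cebpa-low control array.

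Both subunits of glutamate-cysteine ligase rose about 4-fold. Gclc, the catalytic subunit, read 10.86, 10.75 and 11.01 at 0 hr, 12.78, 12.74 and 12.89 at 3 hr and 10.44, 10.82 and 10.97 at 72 hr in Cebpa d/d cells. In control cells Gclc read 11.02, 10.66 and 10.09 at 0 hr, 12.75, 12.74 and 12.63 at 3 hr and 10.73, 10.89 and 11.16 at 72 hr. The 6 arrays at 3 hr lay between 12.63 and 12.89, and the control arrays at 0 hr were the most scattered. Gclc rose by 1.93 ± 0.18 in Cebpa d/d cells (3.80-fold, adjusted p = 1.39e-05) and by 2.12 ± 0.18 in control cells (4.34-fold, adjusted p = 6.48e-06). Without the Cebpa-low control array the control rise was 2.33 (adjusted p = 2.37e-06). The rise of Gclc in Cebpa d/d cells less that in control cells was -0.19 with this array and -0.41 without it, and neither passed.

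Gclm, the modifier subunit that lowers the feedback inhibition of the enzyme by glutathione, read 7.90, 7.70 and 7.69 at 0 hr, 9.78, 9.71 and 10.03 at 3 hr and 7.74, 7.98 and 7.87 at 72 hr in Cebpa d/d cells. Its control levels were 8.06, 7.84 and 7.91 at 0 hr, 10.05, 9.98 and 9.44 at 3 hr and 7.86, 7.89 and 7.85 at 72 hr. The 3 hr arrays of the 2 genotypes overlapped, and the 72 hr arrays, at 7.74 to 7.98, lay close to the 0 hr arrays, at 7.69 to 8.06. The rise was 2.08 ± 0.14 in Cebpa d/d cells (4.21-fold, adjusted p = 1.36e-07) and 1.89 ± 0.14 in control cells (3.70-fold, adjusted p = 7.28e-07). From 3 to 72 hr Gclc fell by 2.06 and Gclm by 1.98 in Cebpa d/d cells, and Gclc fell by 1.78 and Gclm by 1.96 in control cells.

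Gss, which completes the tripeptide, had the weakest call. It read 7.84, 8.38 and 7.94 at 0 hr, 8.91, 8.66 and 8.69 at 3 hr and 8.16, 8.17 and 8.03 at 72 hr in Cebpa d/d cells. Control cells read 8.28, 8.56 and 8.32 at 0 hr, 9.55, 8.94 and 8.62 at 3 hr and 8.22, 8.34 and 7.84 at 72 hr. The change to 3 hr was 0.71 ± 0.19 with an adjusted p of 0.0499 in Cebpa d/d cells and 0.65 ± 0.19 with an adjusted p of 0.0739 in control cells. The changes in Cebpa d/d and control cells differed by 0.06 ± 0.28, so the call in 1 genotype alone does not show a difference between them. The call in Cebpa d/d cells was lost on leaving out any 1 of 14 of the 18 arrays, with adjusted p values of 0.0519 to 0.191, and remained without Cebpa d/d 0 hr replicate 2, control 3 hr replicate 1, control 3 hr replicate 3 or control 72 hr replicate 3. In control cells the change passed without control 3 hr replicate 3 (0.86, adjusted p = 0.0401).

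Gsr, the reductase that restores oxidised glutathione with NADPH, also rose in both genotypes. Its levels were 8.46, 8.40 and 8.51 at 0 hr, 9.25, 8.89 and 9.28 at 3 hr and 8.54, 8.87 and 8.64 at 72 hr in Cebpa d/d cells. In control cells they were 8.82, 8.60 and 8.35 at 0 hr, 9.42, 9.15 and 9.0 at 3 hr and 8.87, 9.14 and 8.87 at 72 hr. In both genotypes every 72 hr array was above every 0 hr array, which held for 12.2% of all genes in Cebpa d/d cells and 13.1% in control cells. The rise to 3 hr was 0.68 ± 0.14 in Cebpa d/d cells (1.60-fold, adjusted p = 0.0103) and 0.60 ± 0.14 in control cells (1.52-fold, adjusted p = 0.0288). Without the Cebpa-low control array the control rise was 0.71 (adjusted p = 0.0248). The rise in Cebpa d/d cells was no longer called when replicate 1 or 3 at 3 hr was left out (adjusted p = 0.0572 and 0.0641). That in control cells was no longer called without control 0 hr replicate 3, control 3 hr replicate 1 or control 3 hr replicate 2 (adjusted p = 0.115, 0.0601 and 0.0669). From 3 to 72 hr Gsr differed by -0.45 in Cebpa d/d cells (adjusted p = 0.0582) and -0.23 in control cells (adjusted p = 0.255), and neither passed.

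Gpx2, a selenium-dependent peroxidase of epithelia that spends glutathione on peroxides, read 9.31, 9.62 and 9.54 at 0 hr, 10.82, 10.46 and 11.02 at 3 hr and 9.65, 9.74 and 9.67 at 72 hr in Cebpa d/d cells. Control cells read 9.76, 9.84 and 9.34 at 0 hr, 10.52, 10.61 and 10.52 at 3 hr and 9.54, 9.81 and 9.30 at 72 hr. The 3 hr arrays of Cebpa d/d cells spanned a wider range than those of control cells and enclosed it. Gpx2 rose by 1.28 ± 0.15 in Cebpa d/d cells (2.42-fold, adjusted p = 0.000102) and by 0.91 ± 0.15 in control cells (1.87-fold, adjusted p = 0.00465), and the changes differed by 0.37 ± 0.22 (adjusted p = 0.741). It fell again by 1.08 in Cebpa d/d cells and by 1.0 in control cells from 3 to 72 hr.

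Chac1, which cleaves glutathione in the cytosol and so works against the synthetic enzymes, rose with them. It read 6.93, 6.80 and 6.82 at 0 hr, 8.82, 8.88 and 8.76 at 3 hr and 6.96, 6.90 and 6.64 at 72 hr in Cebpa d/d cells. Control cells read 6.81, 6.92 and 6.74 at 0 hr, 7.85, 8.31 and 7.66 at 3 hr and 6.75, 6.58 and 6.62 at 72 hr. All 3 Cebpa d/d arrays at 3 hr were above all 3 control arrays, whereas the genotypes overlapped at 0 and 72 hr. Chac1 rose by 1.97 ± 0.13 in Cebpa d/d cells (3.92-fold, adjusted p = 1.58e-07) and by 1.12 ± 0.13 in control cells (2.17-fold, adjusted p = 0.000158). By 72 hr it had fallen by 1.99 in Cebpa d/d cells (adjusted p = 1.44e-07) and by 1.29 in control cells (adjusted p = 1.59e-05).

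**Figure D2:**
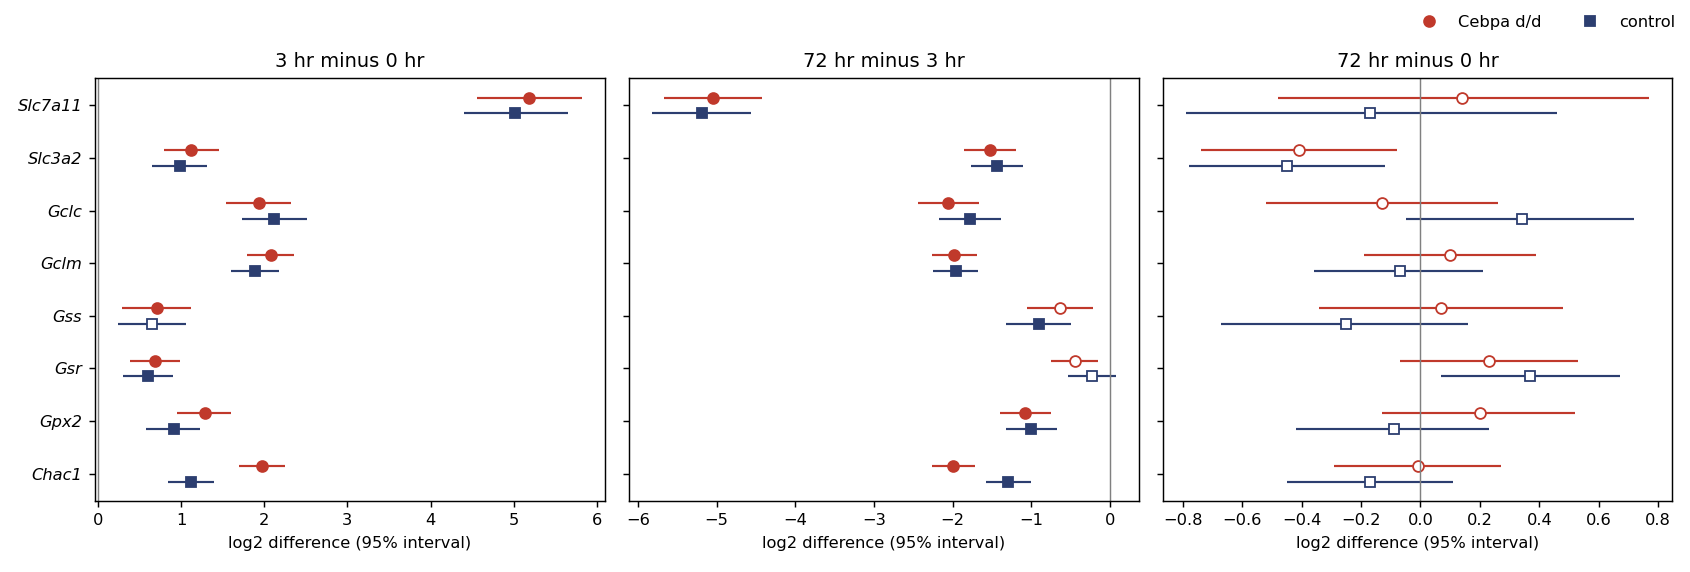
Log2 difference between times (horizontal axis, 95% interval) for the 8 glutathione genes in Cebpa d/d and control cells, with filled symbols at an adjusted p under 0.05 and open symbols otherwise. Slc7a11 lies apart at 5.19 and 5.02 in the first panel, and no symbol is filled in the panel of 72 hr against 0 hr, whose axis covers a narrower range.

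From 3 to 72 hr most of the genes fell again, and Gsr was the 1 gene for which no fall was called in either genotype. Over that time, 6 of 8 genes fell in Cebpa d/d cells, where 3.67% of all genes fell, and 7 of 8 fell in control cells, where 8.57% of all genes fell. Gss differed by -0.64 in Cebpa d/d cells (adjusted p = 0.0533) and fell by 0.90 in control cells (adjusted p = 0.00442). In Cebpa d/d cells Gss passed on leaving out control 3 hr replicate 1 or 3, control 72 hr replicate 3 or Cebpa d/d 0 hr replicate 2. Gsr passed there without replicate 1 or 3 of either early control group or replicate 2 of the 3 hr Cebpa d/d group, so the count ran from 6 to 8 genes. Between 72 and 0 hr, limma called 0 of 8 genes in either genotype, against 4.80% of all genes in Cebpa d/d cells and 7.15% in control cells. At an unadjusted p under 0.05 there was 1 gene in Cebpa d/d cells, Slc3a2, and there were 2 in control cells, Slc3a2 and Gsr. Of all genes, 17.5% in Cebpa d/d cells and 21.1% in control cells had such a p, so these counts are near the background. Gsr was 0.23 log2 units above its start in Cebpa d/d cells (95% interval -0.07 to 0.53) and 0.37 above it in control cells (95% interval 0.07 to 0.67, adjusted p = 0.129), where its rise to 3 hr had been 0.60. Without the Cebpa-low control array Gsr in control cells was 0.49 above its start (adjusted p = 0.0617), and with array weights it was 0.54 above it (adjusted p = 0.00697) and passed. Gclc in control cells was 0.34 above its start with an interval of -0.05 to 0.72. It was 0.55 above it without the Cebpa-low control array (adjusted p = 0.0671). It passed with array weights (0.61, adjusted p = 0.0164) and without the 2 arrays whose Cebpa level stood apart, the Cebpa-low control array and replicate 1 at 72 hr of Cebpa d/d (0.55, adjusted p = 0.0382).

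Genotype was compared at each time. Of the 8 genes, Chac1 alone passed, and only at 3 hr, where it was higher in Cebpa d/d cells by 0.88 ± 0.13 log2 units (1.84-fold, 95% interval 0.60 to 1.16, adjusted p = 0.0326). That was 1 of 8 genes, where 3 of 19938 genes, or 0.0150%, were higher, and 3.74% of all genes had all Cebpa d/d arrays above all control arrays. The size of the difference ranged from 0.74 to 1.07 on leaving out each array in turn. The call was less firm than the size: it was kept on leaving out replicate 1 or 3 of control at 0 hr, replicate 2 of control at 3 hr, or replicate 1 or 3 of Cebpa d/d at 72 hr. It was lost on leaving out any 1 of the other 13 arrays, with adjusted p values up to 0.194. With only the 6 arrays at 3 hr in the fit, the adjusted p was 0.426. It was 0.0139 when the Cebpa-low control array was dropped.

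The difference in the rise of Chac1 from 0 to 3 hr between the genotypes was 0.86 ± 0.19 log2 units (95% interval 0.46 to 1.25), with an unadjusted p of 0.000267 and an adjusted p of 0.192. It did not pass. Without control 3 hr replicate 2 it was 1.04 with an adjusted p of 0.04996, just inside the threshold. For this difference limma called 0 of 8 glutathione genes and 0.00% of all genes. At an unadjusted p under 0.05 there were 1 of the 8 and 1365 of all genes, or 6.85%. Averaged over the 3 times, the difference of Chac1, Cebpa d/d minus control, was 0.36 ± 0.08 log2 units with an adjusted p of 0.0544. Thus 0 of 8 genes passed there, against 0.306% of all genes. At an unadjusted p under 0.05 there was 1 of 8, against 8.57% of all genes. Chac1 passed there without the Cebpa-low control array (0.36, adjusted p = 0.0455) or without control 3 hr replicate 2 (0.42, adjusted p = 0.00592). Genotype differences in the change from 0 to 72 hr and from 3 to 72 hr were called for 0 of 8 genes each, and for 0.0953% and 0.0100% of all genes. At an unadjusted p under 0.05 there were 0 and 1 (Chac1) of the 8, against 4.47% and 6.06% of all genes.

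**Figure D3:**
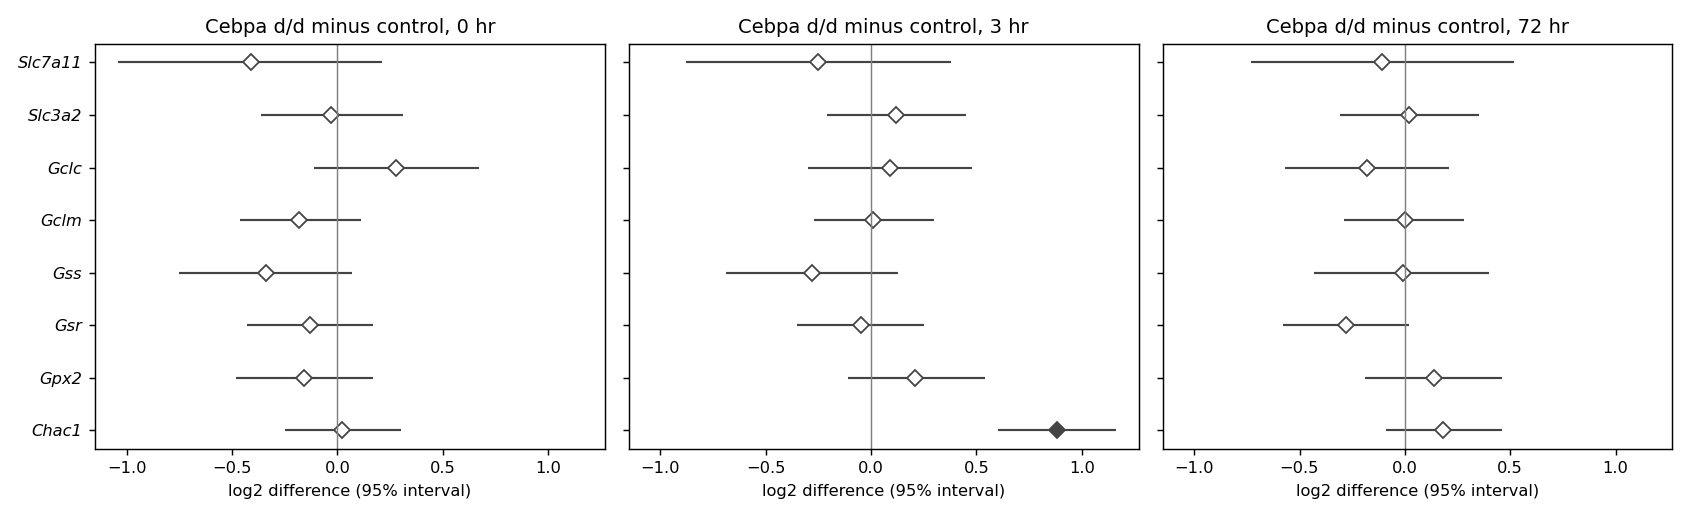
Log2 difference, Cebpa d/d minus control, with its 95% interval (horizontal axis), for the 8 glutathione genes at 0, 3 and 72 hr, with filled symbols at an adjusted p under 0.05 and open symbols otherwise. Chac1 at 3 hr, at 0.88, is the only filled symbol, and the intervals of the other 7 genes cross 0 in all 3 panels.

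The other 7 genes gave intervals that held 0 at every time. At 3 hr their differences lay between -0.28 for Gss and 0.21 for Gpx2, and their 95% intervals reached from -0.88 to 0.54. The widest was that of Slc7a11, at -0.25 with an interval of -0.88 to 0.38. At 0 hr limma called 0 of 8 genes, with 0 at an unadjusted p under 0.05 and 0.336% of all genes called, and differences of -0.41 to 0.28. Without the Cebpa-low control array, Gclc at 0 hr differed by 0.50 in place of 0.28 (adjusted p = 0.270) and Slc3a2 by 0.15 in place of -0.03. At 72 hr it called 0 of 8, again with 0 at an unadjusted p under 0.05 and 0.0702% of all genes called. Gsr at 72 hr came nearest, at -0.28 with an interval of -0.58 to 0.02. These intervals bound the differences and do not show that the genotypes were alike.

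A wider set of 85 genes of glutathione metabolism and its control, 81 of them measured, placed the 8 genes among their neighbours. From 0 to 3 hr, 19 rose and 0 fell in Cebpa d/d cells, and 19 rose and 2 fell in control cells. Over all genes 2.66% rose and 1.72% fell in Cebpa d/d cells, and 1.88% rose and 1.62% fell in control cells. Most of these rises came from regulators and transporters. Of 14 regulators of the NRF2 and ATF4 pathways, 10 rose in each genotype, with medians of 0.66 in Cebpa d/d cells and 0.53 in control cells. Atf3, a stress-induced partner of ATF4, rose by 2.81 in Cebpa d/d cells and 2.67 in control cells. Sqstm1, which binds the NRF2 inhibitor KEAP1, rose by 1.48 in Cebpa d/d cells and 1.29 in control cells. Bach1, a repressor at antioxidant response elements, rose by 0.77 in Cebpa d/d cells and 0.78 in control cells.

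The 2 factors themselves were looked up for their roles after values had been seen. Atf4 rose by 1.17 ± 0.19 in Cebpa d/d cells (adjusted p = 0.00171) and by 0.88 ± 0.19 in control cells (adjusted p = 0.0199). Nfe2l2, which encodes NRF2, rose by 0.55 ± 0.14 in Cebpa d/d cells (adjusted p = 0.0332), and its difference was 0.21 ± 0.14 in control cells (adjusted p = 0.396). For the difference in rise between the genotypes limma called 0 of all genes. The call of Nfe2l2 in 1 genotype alone thus does not show a difference between them. Both factors are controlled largely after transcription, so these are transcript levels alone.

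Of 17 other cystine and amino acid transporters, 6 rose in Cebpa d/d cells and 5 in control cells. Slc7a5, a large neutral amino acid exchanger that also pairs with Slc3a2, rose by 1.88 ± 0.19 in Cebpa d/d cells and 2.28 ± 0.19 in control cells. Slc1a4, a carrier of small neutral amino acids, rose by 1.76 in Cebpa d/d cells and 1.29 in control cells. The cationic carrier Slc7a1 rose by 1.04 in Cebpa d/d cells and 0.87 in control cells. Cth, which makes cysteine from cystathionine, was the 1 riser among 12 transsulfuration genes, at 0.86 in Cebpa d/d cells (adjusted p = 0.0148) and 0.71 in control cells (adjusted p = 0.04998, just inside the threshold), while Mtr fell by 0.39 in control cells. Pgd, an NADPH-forming enzyme of the pentose phosphate pathway, rose by 0.85 in both genotypes and was the 1 riser among 9 genes of NADPH supply. Nnt, which makes NADPH in mitochondria, fell by 0.60 in control cells (adjusted p = 0.0343). Its difference in Cebpa d/d cells was -0.52 (adjusted p = 0.0537) and did not pass. For Nnt and Mtr, the call in 1 genotype alone does not show a difference between the genotypes.

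Among 11 other glutathione peroxidases and glutaredoxins limma called 0 in either genotype, with medians of -0.15 in both and with 4 in Cebpa d/d cells and 6 in control cells at an unadjusted p under 0.05, where 17.2% and 21.0% of all genes were. The 4 in Cebpa d/d cells, Gpx3, Gpx5, Gpx7 and Glrx2, were lower at 3 hr. Of the 6 in control cells, Gpx1, Gpx3 and Gpx8 were lower, and Gpx5, Gpx6 and Glrx were higher. Among 11 genes of the gamma-glutamyl cycle and glutathione breakdown limma also called 0, with 1 in Cebpa d/d cells and 3 in control cells at an unadjusted p under 0.05. Gpx2 and Chac1 are of the same kinds as the genes on these lists. Of 7 export and mitochondrial import genes, 1 rose in Cebpa d/d cells and 2 rose in control cells: the glutathione conjugate pump Abcc1 rose by 0.70 in both genotypes, and Abcc4 rose by 0.59 in control cells. Between Cebpa d/d and control cells, 0 of the 81 genes passed at 0, 3 or 72 hr, with 9, 12 and 10 at an unadjusted p under 0.05 at those times. Over all genes the shares at an unadjusted p under 0.05 were 8.53%, 5.02% and 6.31% at 0, 3 and 72 hr. Lists were chosen with results of these data known, and their counts are descriptions.

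**Figure D4:**
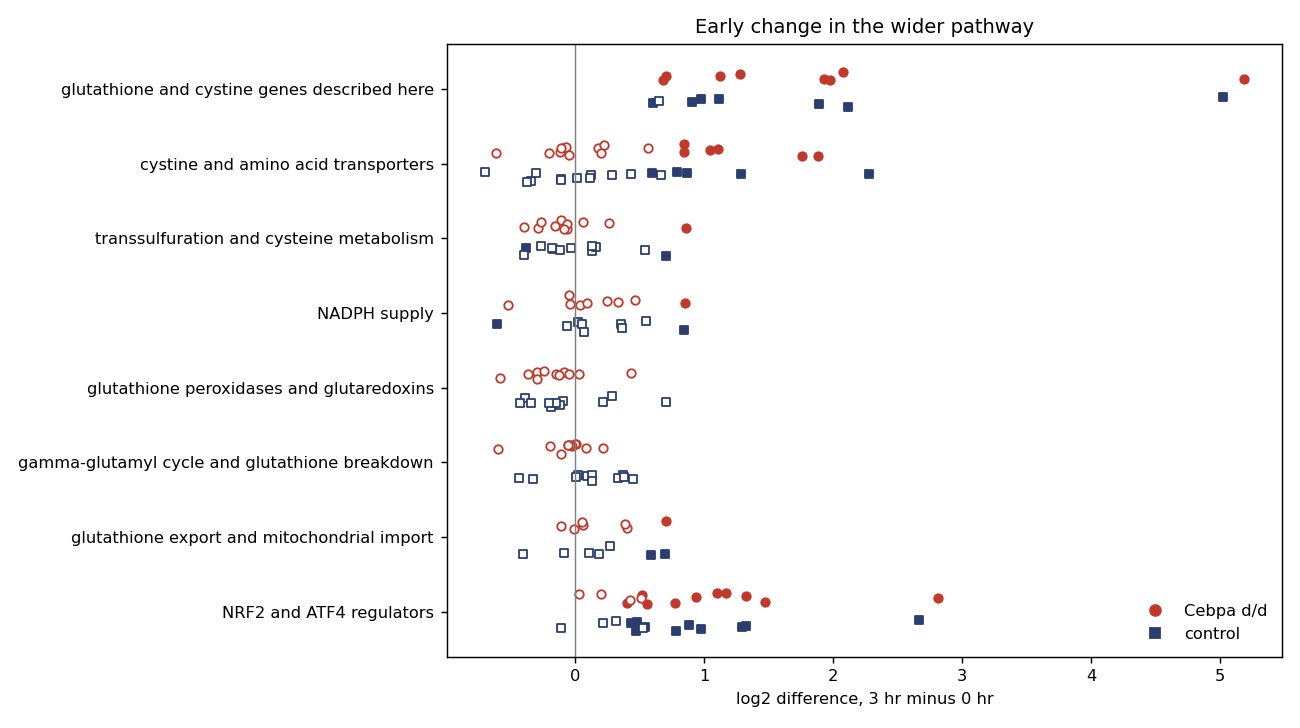
Log2 difference from 0 to 3 hr (horizontal axis) for the 8 glutathione and cystine genes (top) and each measured gene of 7 lists of the wider pathway, with 1 symbol per gene in Cebpa d/d and in control cells, filled at an adjusted p under 0.05 and open otherwise. Regulators extend to 2.81, the value of Atf3 in Cebpa d/d cells. The lists of peroxidases with glutaredoxins and of the gamma-glutamyl cycle hold no filled symbol. They run from -0.60 for Anpep in Cebpa d/d cells to 0.70 for Glrx in control cells.

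Called changes in the wider set from 3 to 72 hr were mostly falls. Of the 81 genes, 21 fell and 6 were higher in Cebpa d/d cells. In control cells 27 fell and 12 were higher. Over all genes 3.67% fell in Cebpa d/d cells and 8.57% in control cells. Among the 17 transporters 6 fell in each genotype, and Slc7a5 fell by 1.81 in both. Cth fell by 0.95, Pgd by 0.98 and Abcc1 by 0.68 in Cebpa d/d cells, and by 1.16, 1.17 and 1.02 in control cells. From 3 to 72 hr, 11 of 14 regulators fell in each genotype, among them Ddit3, a stress-induced C/EBP family member, by 1.85 in Cebpa d/d cells and 1.87 in control cells. The peroxidases and glutaredoxins had 3 of 11 higher at 72 hr than at 3 hr in Cebpa d/d cells and 5 of 11 in control cells, where 4.88% of all genes in Cebpa d/d cells and 11.2% in control cells were higher. Gpx7 was higher by 0.76 in Cebpa d/d cells and 0.55 in control cells, and Gpx8 by 0.61 in Cebpa d/d cells and 0.60 in control cells. Both are peroxidases of the endoplasmic reticulum. Gpx1 was higher by 0.92 in control cells (adjusted p = 0.00177), the smallest adjusted p of this list there. The glutaredoxin Glrx5 was higher by 0.38 in Cebpa d/d cells (adjusted p = 0.0486). Fibroblast markers were higher at 72 hr than at 3 hr for 3 of 6 in Cebpa d/d cells and 4 of 6 in control cells, with medians of 0.51 in Cebpa d/d cells and 0.75 in control cells. Their mean per array was 8.63 to 9.03 at 72 hr and 8.47 to 8.65 at 3 hr in Cebpa d/d cells, and 8.86 to 9.09 at 72 hr and 8.14 to 8.41 at 3 hr in control cells. Against 0 hr, the glutaredoxin Glrx was higher at 72 hr by 0.81 in Cebpa d/d cells and 1.38 in control cells, and the membrane dipeptidase Dpep2 by 0.74 in Cebpa d/d cells and 1.64 in control cells. The peroxidase genes Gpx3 and Gpx5 were lower at 72 hr in Cebpa d/d cells, by 0.68 (adjusted p = 0.0285) and 0.48 (adjusted p = 0.0188). Gpx3 averaged 10.04 at 0 hr and 9.36 at 72 hr in these cells. Gpx5 averaged only 4.17 at 0 hr and 3.68 at 72 hr, low on the log2 scale. Whether Gpx5 was above background could not be examined, so its difference may not reflect a change in transcript. Of the macrophage markers, limma called 0 of 7 higher at 72 hr than at 0 hr in Cebpa d/d cells (1 at an unadjusted p under 0.05) and 3 of 7 in control cells, with medians of 0.48 in Cebpa d/d cells and 0.94 in control cells. Their mean per array was 7.15 to 7.87 at 72 hr and 7.24 to 7.31 at 0 hr in Cebpa d/d cells, and 7.83 to 8.27 at 72 hr and 7.02 to 7.25 at 0 hr in control cells. Between those times 4.80% of all genes in Cebpa d/d cells and 7.15% in control cells were called in either direction. The part of macrophages and fibroblasts in these changes was not tested.

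The genes whose levels ran most like Slc7a11, Gclm and Chac1 were sought among 1121 genes whose 6 group means spanned at least 1 log2 unit. Pearson correlations over the 18 arrays describe shared time courses only, since all arrays share the same 3 times. For Slc7a11 the nearest were Srxn1 (0.987), Hmox1 (0.984), Txnrd1 (0.976), Sqstm1 (0.961) and Osgin1 (0.956), and for Gclm they were Srxn1 (0.990), Hmox1 (0.990), Txnrd1 (0.983), Sqstm1 (0.976) and Slc7a5 (0.967). Srxn1 encodes sulfiredoxin, Hmox1 heme oxygenase and Txnrd1 thioredoxin reductase. Hmox1 averaged 7.91, 12.20 and 7.80 at 0, 3 and 72 hr in Cebpa d/d cells and 8.05, 12.00 and 7.83 in control cells. Chac1 ran closest to Zfp36 (0.961), Brd2 (0.960), Bach1 (0.959), Zfand5 (0.955) and Osgin1 (0.953). Zfp36, which speeds the decay of AU-rich mRNAs, averaged 9.52 at 3 hr in Cebpa d/d cells and 9.07 in control cells. Among the 8 glutathione genes themselves, the 28 pairwise correlations ran from 0.63 between Gsr and Chac1 to 0.99 between Slc7a11 and Gclm.

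Markers of other cells also differed between the arrays compared. Club cell markers gave 0 of 8 called from 0 to 3 hr in either genotype, with 0 in Cebpa d/d cells and 2 in control cells at an unadjusted p under 0.05. From 0 to 3 hr, 17.2% of all genes in Cebpa d/d cells and 21.0% in control cells had such a p. All 6 cardiac muscle markers fell in Cebpa d/d cells, where their mean per array was 8.66 to 9.10 at 3 hr and 10.68 to 11.62 at 0 hr. In control cells 0 of 6 passed, 5 of 6 at an unadjusted p under 0.05, with means of 8.19 to 8.68 at 3 hr and 8.32 to 9.94 at 0 hr. The 7 neutrophil markers gave 0 called by limma, with 0 in Cebpa d/d cells and 1 in control cells at an unadjusted p under 0.05, and had mean levels at 3 hr of 6.39 to 7.19 in Cebpa d/d cells and 6.27 to 7.82 in control cells. Endothelial markers fell for 1 of 6 in Cebpa d/d cells and 2 of 6 in control cells, and alveolar type 1 markers for 2 of 6 in each. Of smooth muscle, fibroblast, alveolar type 2 and proliferation markers, 0 fell in Cebpa d/d cells, and 2 of 5, 1 of 6, 1 of 7 and 1 of 4 fell in control cells. The share of all genes that fell from 0 to 3 hr was 1.72% in Cebpa d/d cells and 1.62% in control cells. From 3 to 72 hr, 2 of 8 ciliated cell, 0 of 7 alveolar type 2, 1 of 7 macrophage and 0 of 5 smooth muscle markers were called higher in Cebpa d/d cells. In control cells 6 of 8 ciliated cell, 4 of 7 alveolar type 2, 4 of 7 macrophage and 3 of 5 smooth muscle markers were. Of all genes, 4.88% were called higher in Cebpa d/d cells and 11.2% in control cells, so the counts of the genotypes have different backgrounds. Club cell markers had a lower mean per array at 72 hr in control cells, at 12.15 to 12.22. Their means there were 12.58 to 12.62 at 0 hr and 12.30 to 12.54 at 3 hr. In Cebpa d/d cells the times overlapped, at 12.38 to 12.55, 12.47 to 12.54 and 12.09 to 12.56 at 0, 3 and 72 hr. The part of all these cell types in the changes of the glutathione genes was not tested. All 4 measured proliferation markers were higher at 72 hr than at 0 hr in both genotypes, where 0 of 8 glutathione genes were called. Between those times 4.80% of all genes in Cebpa d/d cells and 7.15% in control cells were called in either direction. Xist was at 10.07 to 10.26 on all 6 arrays at 72 hr and, in each group at 0 and 3 hr, 1 of 3 arrays lay between 10.06 and 10.59. In every comparison of 72 hr with an earlier time, the groups thus also differed in Xist level, and the 2 cannot be fully told apart. With the Xist level in the fit, Gss in Cebpa d/d cells no longer passed at 3 hr (adjusted p = 0.0566), while the same number of glutathione genes or 1 fewer passed in each comparison.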

How the data were processed

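Total RNA of 18 samples was hybridised to Affymetrix arrays. The authors deposited 1 log2 value per probe set and array, for which the submitters' processing notes name RMA. No source used here gives its version, the genome build or filters. The log2 values ran from 2.53 to 13.93, array medians were 6.48 to 6.65, and precision is limited by how many arrays there are. Scanner files were not used here, so background and saturation were not examined.

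Of 35557 probe sets, 21789 had 1 symbol, 1621 several and 12147 none. Single-symbol probe sets, with the highest mean where a gene had several, gave 19938 genes. Each glutathione gene had 1 probe set. Levels of different probe sets were not compared.

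Groups were taken from the genotype and time in the labels. One model of the 6 group means over all 18 arrays was fitted in limma 3.58.1 (R 4.3.3), with 12 residual degrees of freedom and 4.49 from moderation. Adjustment followed Benjamini-Hochberg, over all genes within each contrast, and every adjusted p in the text is from this test. The fit was tested on simulated data. Glutathione genes and lists were chosen with earlier results of these data known. Named from each pathway list were up to 3 genes per contrast with the smallest adjusted p, and for Slc7a11, Gclm and Chac1 the 5 most correlated genes. Same-numbered replicates deviated from their group means with correlations of -0.283 to 0.199 over 9 pairs, so the numbers were not taken as pairs. Alternatives were a replicate block, a filter on low levels, averaged probe sets, trended robust moderation, array weights, only the groups compared, median centring, Xist as a covariate and leaving out arrays.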

Additional observations from a re-analysis of the deposited data

How the results depend on the processing

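Over 13 comparisons and 8 genes, 16 of 104 differences changed call under some alternative, and 0 differences called in any setting changed sign. Of the differences called in no setting, 29, at most 0.31 in size, changed sign under some alternative. Among them was Slc7a11 without the Cebpa-low control array (control 0 hr replicate 1), from -0.17 to 0.25 between 72 and 0 hr in control cells and from 0.17 to -0.25 for the interaction at 3 hr. Chac1 at 3 hr between genotypes gave 1 gene called, which became 0 with only the groups compared in the fit and 0 without genes below the median level, and 0 to 1 on leaving out 1 array. For the mean of 3 times the count was 0, which became 1 (Chac1) with the replicate block, 1 without genes below the median level and 1 with array weights, and 0 to 1 on leaving out 1 array. From 0 to 3 hr in control cells, 7 genes passed, and 3 with only the groups compared, where Slc3a2, Gsr, Gpx2 and Chac1 missed the threshold (adjusted p of 0.0867, 0.174, 0.0604 and 0.0508). That fit had fewer samples. Array weights called Gss too (0.77, adjusted p = 0.0226). Leaving out 1 array gave 6 to 8 there, 6 to 8 in Cebpa d/d cells, 6 to 8 from 3 to 72 hr in Cebpa d/d cells, where array weights, median centring and the filter on low levels each called both Gss and Gsr, and 0 to 1 for the interaction at 3 hr. From 0 to 72 hr, array weights gave 1 gene in Cebpa d/d cells (Slc3a2, -0.46) and 2 in control cells (Gclc, 0.61, and Gsr, 0.54). In control cells the replicate block gave 1 (Slc3a2, -0.45) and leaving out both arrays with a divergent Cebpa level, chosen after seeing the data, gave 1 (Gclc, 0.55). The cause of these shifts was not tested.

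The samples share only a replicate number: 3 of 9 same-numbered pairs had correlated deviations above 0.1. The replicate block moved counts only for the mean of 3 times, from 0 to 72 hr in control cells and, for Gss, from 3 to 72 hr in Cebpa d/d cells (-0.64, adjusted p = 0.0404). Fitting only the groups compared was not run for the mean of 3 times, which uses all groups. Slc7a11 and Gclm kept their direction and call from 0 to 3 hr and from 3 to 72 hr under all alternatives. Signal over background could not be examined.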
